A study of Homo sapiens with 30 samples.

Results

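Broad differential regions are stretches of at least 3000 bp at which the authors listed a difference in chromatin accessibility between HNF6 knockout and control cells. They were taken from the 10 deposited differential lists, 1 for each genotype and stage, as the autosomal rows with an end minus start of at least 3000 bp. The rule left 1134 broad regions among 89274 autosomal rows, and the remaining 88140 narrower rows served for comparison. Width, direction and ratio come from the same contrast that chose the rows, so these values are given as descriptions, without tests.

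The cells were HUES8, an established human embryonic stem cell line, differentiated in vitro along the pancreatic lineage and profiled by ATAC-seq, an assay that uses a transposase to tag DNA wherever chromatin is open. In such bulk samples, more cells open at a region and more opening per cell cannot be told apart. The groups were HNF6 knockout HUES8 and wild-type HUES8 at each of 5 stages: ESC (undifferentiated), DE (definitive endoderm), GT (gut tube), PE (pancreatic endoderm) and PP (pancreatic progenitors). Each of these 10 groups had 3 samples. The labels give neither how the knockout was made, nor how many clones were used, nor whether each group's 3 samples were differentiated separately, so their spread may be purely technical.

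HNF6, also called ONECUT1, is a homeodomain transcription factor that acts in the developing liver and pancreas. Open chromatin usually appears in short peaks, where a nucleosome is displaced at a promoter or enhancer. Wide stretches of raised accessibility are known from clustered enhancers and from gene-dense segments in which neighbouring elements merge, and a region caller can also join neighbouring windows into a single interval. Genes and sequence at the broad regions were not analysed here, since no reference of the files' hg19 build was used, and the check of the targeted gene was therefore not made.

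Broad regions were a small class, listed mainly as more accessible in knockout cells. They made up 1.27% of the autosomal rows and 5.09% of the listed length, 4213700 bp in all. Their median width was 3475 bp, against 750 bp for the narrower rows, and the widest measured 10400 bp. The knockout lists held 965 of the 1134, or 85.1%, whereas they held 67.8% of the narrower rows.

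The DE stage carried more than any other. The knockout DE list held 610 broad regions, 5.17% of its 11810 rows (95% Wilson interval 4.78 to 5.58, counting error only), and the control DE list held 33 of 7004. The broad regions made up 15.7% of the length of the knockout DE list, 2336.65 kb. At GT there were 184 broad regions higher in knockout cells and 55 higher in control cells. At PE there were 80 higher in knockout cells and 32 higher in control cells. At PP, 59 of 24647 knockout rows were broad and none of the 3158 control rows was, the widest of which measured 2300 bp. ESC was the exception in direction, with 32 higher in knockout and 49 higher in control cells.

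**Figure D1:**
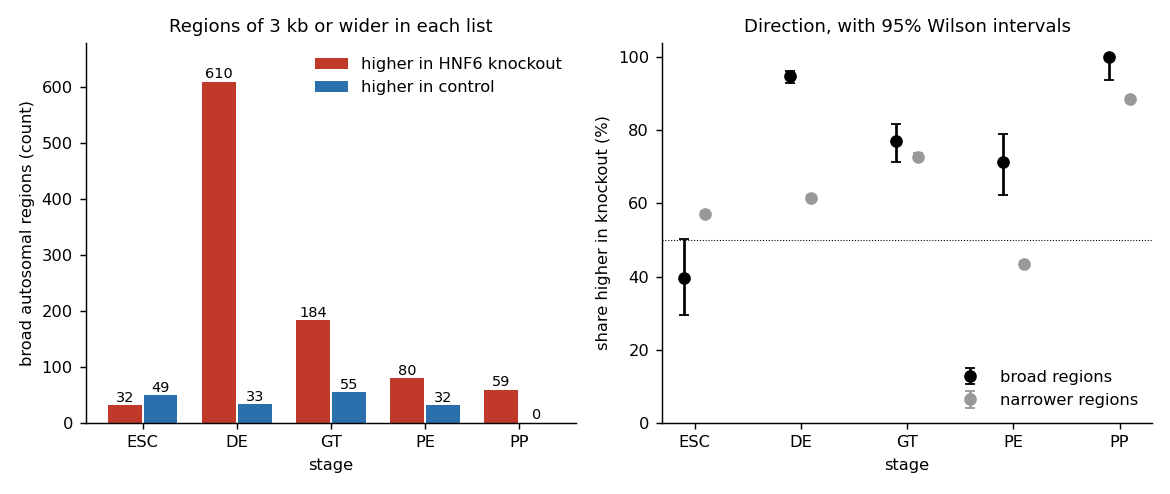
Left, number of broad autosomal regions by stage in the list higher in HNF6 knockout cells and in the list higher in control cells. Right, share of each stage's listed regions that were higher in knockout cells, for broad and narrower regions, as points with 95% Wilson intervals for counting error. The knockout DE bar stands at 610, and the broad share lies above the narrower share at DE, GT, PE and PP but below it at ESC.

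The direction of the broad regions stood apart from that of the narrower rows at PE, DE and ESC. At PE, 71.4% of the broad regions were higher in knockout cells (62.5 to 79.0), against 43.4% of the narrower rows. At DE the shares were 94.9% of broad (92.9 to 96.3) and 61.6% of narrower rows. ESC went the other way, with 39.5% of broad (29.6 to 50.4) and 57.2% of narrower rows higher in knockout cells. Broad and narrower rows were closer at GT and PP. At GT the broad share was 77.0% (71.2 to 81.9) and the narrower share 72.8%. At PP it was 100% of the 59 broad regions (93.9 to 100) and 88.6% of the narrower rows. The PE difference was not carried by a single chromosome: knockout regions outnumbered control regions among the broad rows on 10 chromosomes, and control regions outnumbered knockout regions on 5.

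The ratios between genotypes were small over these widths. The median size of the log2 ratio was 0.43, or 1.35-fold, over the broad regions and 0.95, or 1.93-fold, over the narrower rows. Exactly 1 broad region reached 2-fold, 0.0882% of them, whereas 45.2% of all autosomal rows did. Pooled over the lists, the size fell with width. The median was 1.20 for rows under 1 kb, 0.51 for rows of 2 to under 3 kb, 0.44 for those of 3 to under 4 kb and 0.39 for those of 5 kb or wider. Knockout PP did not follow this above 2 kb, with 0.64 at 2 to under 3 kb, 0.64 at 3 to under 4 kb and 0.68 in its 6 regions of 4 to under 5 kb. The few regions of 5 kb or wider also had larger medians than the class below them in knockout ESC (0.62, 1 region), knockout PE (0.43, 2 regions) and control ESC (0.57, 3 regions). The authors' -log10 p ran the other way, with medians of 6.05 under 1 kb and 10.4 at 5 kb or wider. Every listed row had a -log10 p of at least 5. How far that limit shaped the ratios of short and wide rows was not tested. The share higher in knockout cells was 66.7% under 1 kb and 91.0% at 4 to under 5 kb.

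Signal per length separates these width classes further. The deposited values per kb in the higher genotype had a median of 240 in rows under 1 kb and 303 in rows of 3 to under 4 kb. In the lower genotype the medians were 102 and 222 per kb. The lists differed in level: in knockout ESC the lower genotype had 399 per kb at 3 to under 4 kb, and in knockout GT 185 per kb. Pooled over the lists, the excess of the higher genotype was smaller in wide rows, with a median of 72.5 per kb at 5 kb or wider and 148 per kb under 1 kb. At the limit itself, the 95 rows of exactly 3000 bp had a median log2 size of 0.45, and the 84 rows of 2950 bp had 0.46. Of these, 83 of the 95 and 63 of the 84 were higher in knockout cells.

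**Figure D2:**
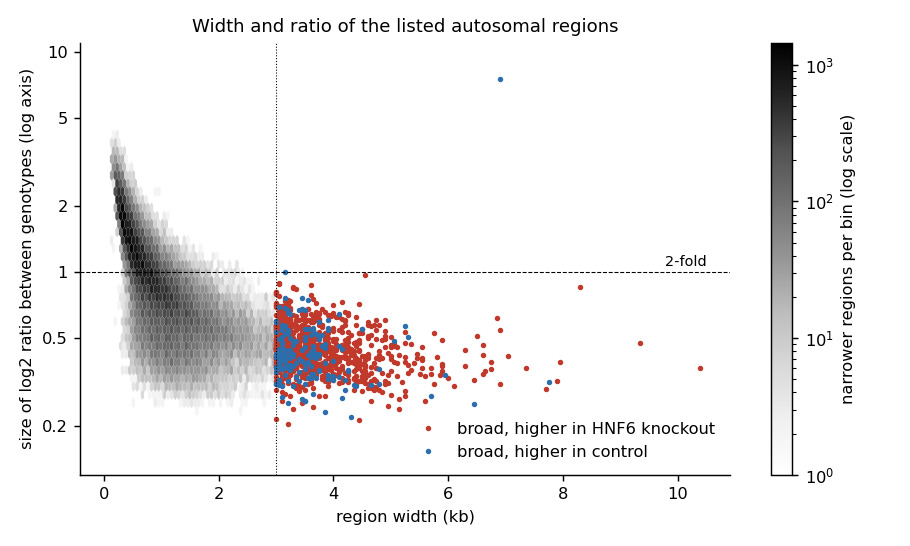
Width of each listed autosomal region in kb against the size of its log2 ratio between genotypes (log axis). Grey bins count narrower regions and points are broad regions by the genotype in which they were higher; the dotted line marks 3 kb and the dashed line 2-fold. All points but 1 lie under the dashed line.

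The values of the 3 samples of each genotype did not overlap in 856 of the 1134 broad regions, 75.5%, close to the 78.4% of all autosomal rows. By list, this held for 452 of 610 in knockout DE (76% of that list's rows), 140 of 184 in knockout GT (82.5%), 58 of 80 in knockout PE (74.5%), 53 of 59 in knockout PP (79.3%) and 26 of 32 in knockout ESC (77.6%). In the control lists it held for 38 of 49 at ESC (73.8% of the rows), 20 of 33 at DE (79.8%), 43 of 55 at GT (82.7%) and 26 of 32 at PE (79.5%). No exact permutation test was run on single regions, because 3 values on each side leave 0.1 as the smallest two-sided p.

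Broad regions at DE were uneven in their levels between knockout samples. The 3 knockout values per kb had medians of 325, 275 and 290 over the 610 regions, against 224, 223 and 216 in control samples. The first knockout value was the highest of its 3 in 400 of the 610, or 65.6%, and in 63.2% of the narrower rows of that list, so the same sample led in both classes. At GT the third knockout value led in 123 of 184 regions, 66.8%, and in 59.0% of the narrower knockout GT rows. At PP the first led in 43 of 59, 72.9%, and in 57.7% of the narrower knockout PP rows. Single control values led in some lists too. In control ESC the first control value was the highest of its 3 in 35 of 49 regions (71.4%, against 47.5% of narrower rows). In the knockout PP list the second control value led in 69.5% of broad and 43.7% of narrower rows. In control DE the largest such share among broad regions was 45.5%. The part of these samples in the listing was not tested.

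Broad regions were spread unevenly over the chromosomes. Chromosome 22 held 154 broad regions, 13.6% of them, with 3.45% of all autosomal rows. Chromosome 11 held 145, with 6.39% of all autosomal rows, and chromosome 1 held 140, with 7.73%. At the low end chromosomes 13 and 21 held 4 each, with 2.02% and 1.10% of the rows. Most of the excess belonged to knockout DE. There, 138 of 843 rows on chromosome 22 were broad, 16.4%, along with 96 of 1008 on chromosome 11 and 114 of 1440 on chromosome 1. Those chromosomes together held 57.0% of the broad knockout DE regions and 27.9% of that list's rows, and 10.6% of their rows were broad, against 3.08% elsewhere. The width of all rows moved the same way, with a median of 1450 bp on chromosome 22 and 1000 bp over the whole list.

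Chromosome 22 was not rich in broad regions at every stage. Its knockout lists held 0 of 248 rows at ESC, 11 of 289 at GT, 1 of 217 at PE and 0 of 708 at PP. The leading chromosome differed between lists. Chromosome 7 held 16 of the 55 control GT regions (29.1%, with 13.7% of that list's rows). Chromosome 9 held 16 of the 80 knockout PE regions (20%, with 9.05% of the rows). In knockout DE, too, 43 of 476 rows on chromosome 9 were broad. Chromosome 10 held 11 of the 59 at PP (18.6%, with 6.20% of the rows). Knockout GT was led by chromosome 11, with 28 of 184 regions (15.2%, with 8.29% of the rows). At ESC, chromosome 19 led in both directions. It held 11 of 32 knockout regions (34.4%, with 3.77% of the rows) and 12 of 49 control regions (24.5%, with 6.26%).

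**Figure D3:**
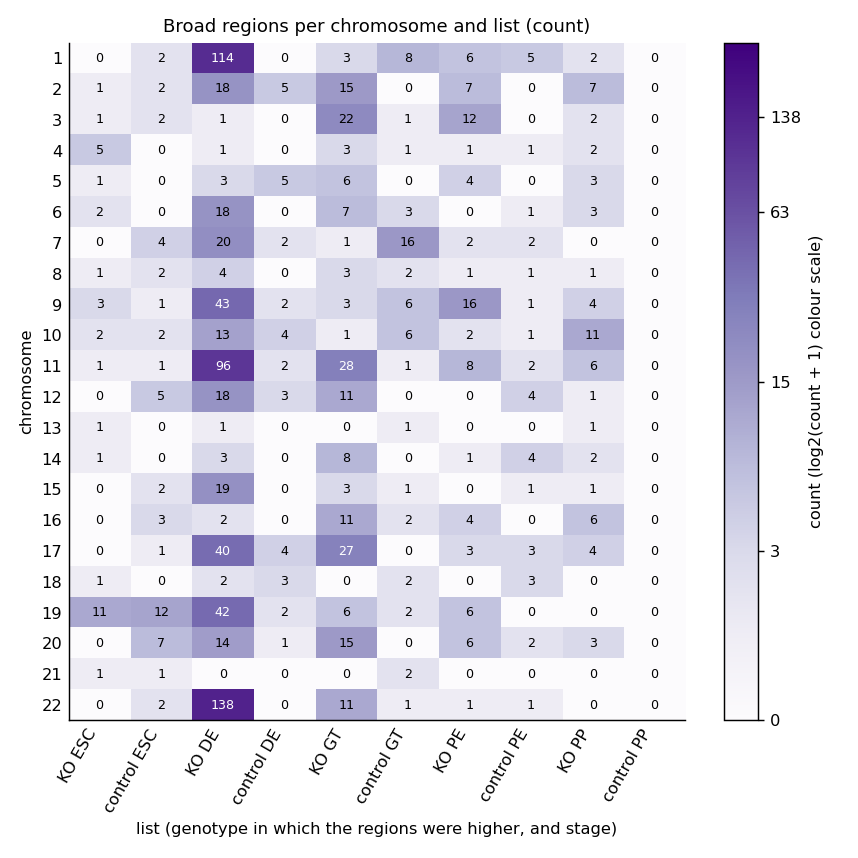
Number of broad regions on each autosome (vertical) in each list (horizontal, knockout left of control at each stage), with the count printed in each cell and a log2(count + 1) colour scale. Chromosomes 22, 1 and 11 stand out in the knockout DE column, with 138, 114 and 96 regions.

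Over all autosomes, 315 of the 610 knockout DE regions, or 51.6%, had another broad region of the list within 100 kb. Of the narrower rows of that list, which are far more numerous, 79.3% had another narrower row within that distance. The broad regions were dense in some blocks. The first 10 Mb of chromosome 1 held 44, among 223 rows, and the first 10 Mb of chromosome 11 held 32 among 145. On chromosome 22 the 10-Mb blocks from 20, 30 and 40 Mb held 32, 34 and 41. In the other lists the share with such a neighbour was lower, for instance 28.75% in knockout PE and 0 of 32 in control PE, though those lists had fewer broad regions to be neighbours.

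The widest of all was chr22:19728701-19739100, 10400 bp on hg19, in knockout DE. In the authors' deposited table it had values of 3678, 2741 and 3071 in knockout cells and 2514, 2318 and 2527 in control cells. The genotypes did not overlap, and the log2 ratio was 0.37. Next came chr22:47052851-47062200, listed in the authors' deposited table with 2915, 2269 and 2709 in knockout cells and 1861, 2034 and 1784 in control cells. Both regions on chromosome 22 also overlapped knockout rows at GT and PP and no control row at any stage.

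Among DE regions the highest authors' score fell on chr5:38314451-38322750. The authors' deposited table gives it 2734, 2585 and 2628 in knockout cells and 1681, 1279 and 1441 in control cells, a log2 ratio of 0.85. This 8300 bp stretch was listed at no other stage, in either direction, and overlapped no wild-type cluster region. Knockout PP had the highest median ratio of the lists with broad regions higher in knockout cells, 0.64 on the log2 scale or 1.56-fold. Its leading region, chr5:92930701-92935250, had values of 2220, 2024 and 2049 in knockout cells and 1000, 1144 and 1070 in control cells, per the authors' deposited table. At 0.97, this log2 ratio was close to 2-fold, and a knockout row of the DE list overlapped the region.

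The other knockout lists held the following leading regions. At GT, chr12:123469201-123473450 had 1208, 1245 and 1148 in knockout cells and 802, 721 and 787 in control cells, per the authors' deposited table, a log2 ratio of 0.64. The widest at GT, chr3:52355701-52362000, had 1765, 1402 and 1724 in knockout cells and 1222, 1249 and 1127 in control cells, per the authors' deposited table. These genotypes were separate in both regions. At PE the widest, chr3:52534151-52541050, had 2518, 2443 and 2457 in knockout cells and 1799, 1567 and 1713 in control cells, per the authors' deposited table. It contained a region that was itself broad and higher in knockout cells at GT. The widest at ESC, chr21:9827501-9834350, had 2648, 3154 and 3336 in knockout cells and 2602, 1941 and 1414 in control cells, per the authors' deposited table. There the lowest knockout value and the highest control value nearly met, and the log2 ratio was 0.62.

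Regions higher in control cells were led by an interval on chromosome 15 in which knockout values were near 0. Whether this interval lies at the targeted gene was not checked, so its values are not read as a loss of accessibility. At ESC, chr15:53075501-53082400 had 18, 17 and 9 in knockout cells and 2718, 3002 and 2779 in control cells, per the authors' deposited table. Its log2 ratio of -7.50 was the only one past 2-fold among the broad regions. Control rows overlapped it at DE, PE and PP too. The PE row chr15:53075451-53078400 had 3, 0 and 0 in knockout cells and 1865, 1742 and 1858 in control cells, per the authors' deposited table. Knockout values were near 0 also in the PP row chr15:53078551-53079550, with a log2 ratio of -7.89, and in the DE row chr15:53076251-53077150, with -6.01. At the right end knockout values were higher: the PE row chr15:53080951-53082550 had 55, 53 and 115 in knockout cells and 613, 768 and 675 in control cells, per the authors' deposited table. The broad region with the next largest ratio in the control lists was chr1:146549601-146552750 at PE, with 539, 642 and 596 in knockout cells and 1059, 1370 and 1123 in control cells, per the authors' deposited table. Its ratio was just short of 2-fold, and control rows overlapped it at ESC and PP as well. The knockout values of that region all lay well under the control values.

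The other control lists differed less. At GT the highest score belonged to chr9:79633101-79636150, with 519, 566 and 416 in knockout cells and 825, 710 and 890 in control cells, per the authors' deposited table. At DE, chr17:19284901-19288800 had 904, 798 and 950 in knockout cells and 1068, 1621 and 1206 in control cells, per the authors' deposited table. The genotypes were separate in both. At ESC, chr12:57627801-57631900 had 1655, 1475 and 1440 in knockout cells and 3193, 2210 and 1748 in control cells, per the authors' deposited table, with the control samples far apart from each other. The GT region chr13:110433651-110440100, the second widest of its list, had 1607, 1653 and 1782 in knockout cells and 2538, 1895 and 1566 in control cells, per the authors' deposited table. Its genotypes overlapped, since the lowest control value lay under all 3 knockout values.

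**Figure D4:**
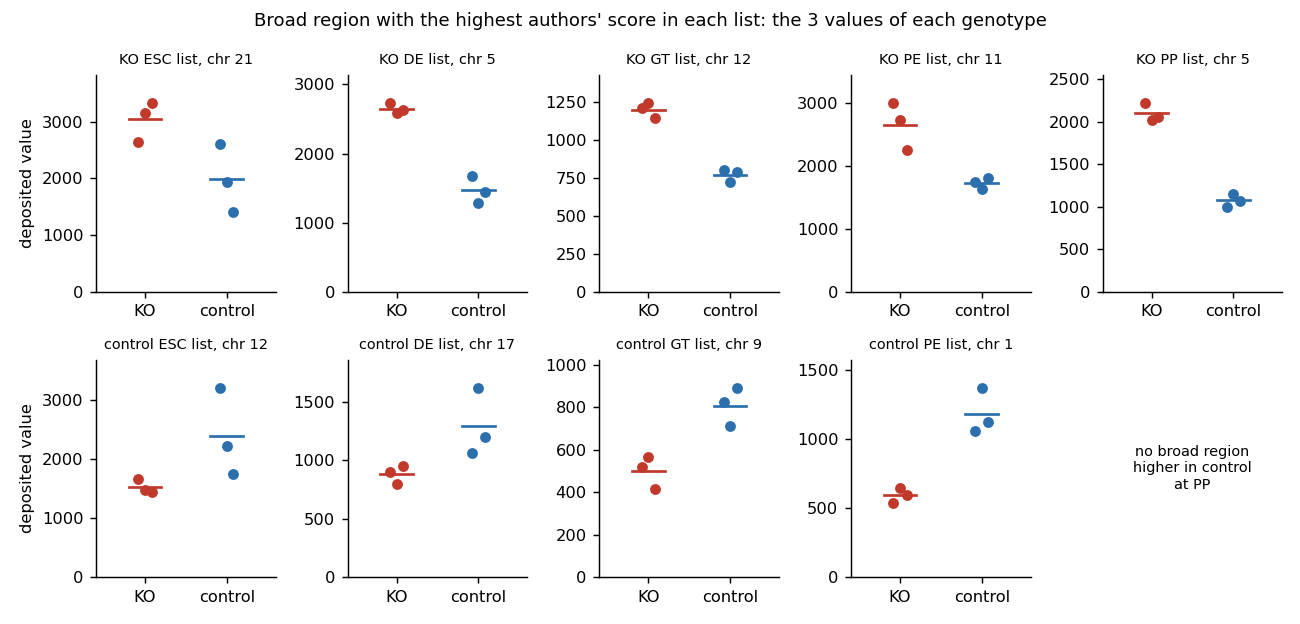
Deposited values of the 3 knockout and 3 control samples (points) and their means (lines) at the broad region with the highest authors' score in each list, chromosome given above each panel. Knockout stands left of control, the vertical axes start at 0, and no value of the lower genotype reaches those of the higher.

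Stages share no libraries, so the lists of another stage are a measure that did not choose a region. Of the 1134 broad regions, 806 overlapped a row of another stage by at least 1 bp, or 71.1% (68.4 to 73.6), against 24.5% of the narrower rows. Wider regions can meet more rows. Per length, 33.1% of the broad length and 21.4% of the narrower length was listed at another stage. Counted as rows, broad regions met 336 of other stages per Mb and narrower rows 346 per Mb. That count takes a row in full even where it shared 1 bp, which raises it more for short rows. The near tie in rows per Mb therefore does not show an equal density. For 400 of the 806 every overlapping row had the same direction (49.6%), for 192 every row had the opposite direction (23.8%), and 214 met both. Among the narrower rows listed at another stage, 51.7% met the same direction alone and 38.9% the opposite direction alone.

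Knockout DE regions met different lists at different stages. At ESC, 42 overlapped knockout rows alone and 133 control rows alone, so the opposite direction prevailed, on 12 chromosomes against 2. At PP, 196 overlapped knockout rows alone and 26 control rows alone, with knockout ahead on 20 chromosomes and control on 0. GT gave 51 and 21, and PE 86 and 36. Without chromosomes 1, 11 and 22 the numbers were 21 knockout and 50 control at ESC, and 88 knockout and 12 control at PP. The narrower knockout DE rows had the same leanings: the control share of those that met 1 direction was 76% for broad and 67.2% for narrower regions at ESC, and 11.7% for broad and 11.6% for narrower regions at PP. The PP knockout list was also much the longer, with 24647 rows, against 3158 in the control list.

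**Figure D5:**
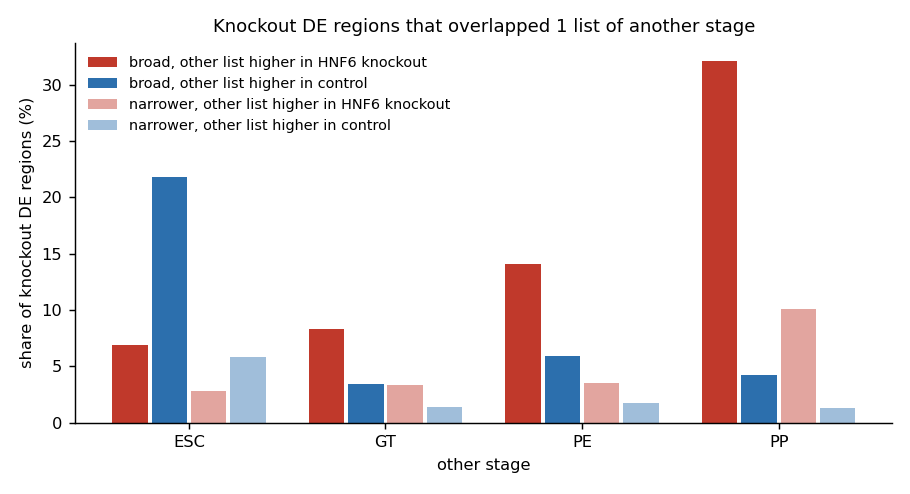
Share of the broad (dark bars) and narrower (pale bars) knockout DE regions, in percent, that overlapped rows of a single list of another stage, knockout left of control. Shares are not adjusted for width; at ESC the control bar is the taller one, and at GT, PE and PP the knockout bar is.

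Among the broad regions, those of control GT were listed elsewhere most often, 51 of 55, against 31.8% of the narrower control GT rows. Of these 51, 22 met rows of the opposite direction alone (43.1%, against 59.0% of such narrower rows). A further 8 met the same direction alone (15.7% and 26.4%), and 21 met both. The widest of them, chr11:63528451-63536200, had 2296, 2020 and 2178 in knockout cells and 2840, 2870 and 2386 in control cells, per the authors' deposited table. Different stretches of it carried different directions: rows higher in control cells at DE, PE and PP lay in its left and middle stretches, and rows higher in knockout cells at ESC and PE lay at its right end. The PE row at that end, chr11:63535501-63537150, had 1369, 1327 and 1483 in knockout cells and 1185, 1127 and 882 in control cells, per the authors' deposited table.

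Rows of all 4 other stages were overlapped by 9 of the 1134 broad regions and by 62 of the 88140 narrower rows, without allowance for width. In 1 of these 9 broad regions, chr6:31742201-31747750 of knockout DE, every overlapping row was higher in knockout cells. It had 2132, 1642 and 1556 in knockout cells and 1344, 1197 and 1337 in control cells, per the authors' deposited table, and its PE row, at chr6:31746751-31747500, reached a log2 ratio of 1.13. By contrast, the knockout GT region chr16:2024601-2029600 met 3 rows higher in control cells at ESC and rows higher in knockout cells at DE, PE and PP. The first of the ESC rows, chr16:2026451-2027300, had 168, 182 and 167 in knockout cells and 305, 340 and 245 in control cells, per the authors' deposited table. The first DE row, chr16:2026701-2028450, which overlapped this ESC row in part and the next one as well, had 661, 663 and 804 in knockout cells and 532, 469 and 350 in control cells, per the authors' deposited table.

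Few places were broad at more than 1 stage. Merged where they overlapped, the broad regions formed 1090 loci, of which 1046 held rows of 1 list, 44 of 2 lists and none of 3 or more. Of the 44, 30 were higher in knockout cells both times, 3 were higher in control cells both times and 11 had opposite directions. Knockout lists held 85.1% of all broad regions, so pairs of knockout rows would be common among any such loci. No count of merged loci is given for the narrower rows, so these numbers have no background. DE and GT shared 10 of the 30, DE and PE 6, GT and PP 4, and PE and PP 4. In 18 of the 30 the genotypes were separate at both stages. Taken singly, 75.5% of broad regions and 78.4% of all autosomal rows were separate, so the 18 do not set these loci apart.

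A shared locus with large ratios at both stages lay on chromosome 11. At PP, chr11:2147601-2150950 had 1553, 1633 and 1938 in knockout cells and 742, 1102 and 1031 in control cells, per the authors' deposited table, a log2 ratio of 0.83. At PE, chr11:2148551-2151700 had 3010, 2731 and 2252 in knockout cells and 1743, 1630 and 1806 in control cells, per the authors' deposited table, a log2 ratio of 0.63. Knockout samples were the higher at both stages, without overlap. A locus on chromosome 16 was also higher in knockout cells at PP and GT. Its PP region, chr16:70194151-70197200, had 895, 831 and 756 in knockout cells and 494, 504 and 341 in control cells, per the authors' deposited table, a log2 ratio of 0.89. The ratio of its GT region was smaller, 0.44 on the log2 scale.

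DE and GT shared loci on several chromosomes. On chromosome 11, the GT region chr11:65680751-65685550 had 1156, 1145 and 1103 in knockout cells and 831, 767 and 690 in control cells, per the authors' deposited table. Its DE counterpart, chr11:65682201-65686400, had 1471, 1228 and 1362 in knockout cells and 1014, 1029 and 1003 in control cells, per the authors' deposited table. The log2 ratios were 0.57 at GT and 0.41 at DE, and the genotypes were separate at both. A locus on chromosome 17 overlapped between genotypes at both stages: chr17:74131801-74136750 had 1577, 1723 and 2136 in knockout cells and 1628, 1741 and 1006 in control cells at DE, per the authors' deposited table, so that 2 control values exceeded the lowest knockout value.

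The 3 loci higher in control cells at both stages were on chromosomes 12, 18 and 19. On chromosome 18, the PE region chr18:70534251-70537300 had 752, 821 and 955 in knockout cells and 977, 1040 and 1240 in control cells, per the authors' deposited table. The GT region there overlapped between genotypes, as did both regions of the loci on chromosomes 12 and 19.

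The wild-type clusters are 22974 regions of 500 bp, in 9 groups, that the authors defined in control cells. The labels do not say what profile a given cluster represents. Of the broad regions, 363 overlapped at least 1 cluster region, 32.0% (29.4 to 34.8), against 10.7% of the narrower rows. Per covered length, broad regions held more cluster regions than the narrower rows in 7 of the 9 lists that had any. Control PE had 299 per Mb in broad and 266 in narrower rows, control GT 230 and 184, knockout PP 190 and 132, and knockout GT 81.3 and 52.0. The margins were 116 and 85.8 in knockout ESC, 156 and 142 in control ESC, and 96.7 and 86.7 in knockout DE. The measured density was lower in broad regions in control DE, 153 against 210, and in knockout PE, 127 against 160. Pooled over the lists it was 117 per Mb in broad and 135 in narrower rows. Knockout DE, where the density was low, supplied 610 of the 1134 broad regions. A cluster region counted in full even where it shared 1 bp with a row, which raises the density more in short rows. These lower values therefore do not show that broad regions held fewer cluster regions per length.

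Clusters 7, 1 and 6 met broad regions most often, at 106, 102 and 64 of them, and clusters 2 and 9 least, at 14 each. Of the autosomal regions of cluster 1, 5.28% lay in a broad region, as did 4.69% of cluster 5, 4.50% of cluster 6 and 3.90% of cluster 7. For cluster 9, the largest by number, the share was 0.32%, and over all clusters it was 2.10%. In narrower rows the share was 47.2% for cluster 1 and 23.2% for cluster 9, so the clusters were spread unevenly there too.

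A minority of the broad regions higher in control cells had a row of the opposite direction nearby, a larger share than among the narrower rows of the same lists. Within 5 kb and at the same stage, this held for 6 of 33 in control DE (18.2%, against 7.20% of its narrower rows), 8 of 49 in control ESC (16.3% and 9.31%), 5 of 32 in control PE (15.6% and 3.76%) and 7 of 55 in control GT (12.7% and 5.57%). Control PP had no broad region, and 15.6% of its narrower rows had such a neighbour, a level like that of the broad regions. In the knockout lists broad and narrower rows were closer, with 5.25% and 4.43% at DE. These are small counts, and no test was made on them.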

How the data were processed

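The files hold lists of regions and no header lines. Bowtie2, MACS2 and hg19 are named per the submitters' processing notes, with no versions or roles. The differential caller, a transposase shift of reads and the scaling of libraries are each not given in the sources used here. Each differential row carries a log2 ratio and a -log10 p of at least 5, both deposited by the authors, and 2 sets of 3 whole numbers. The first set was read as knockout and the second as control, because all 89929 rows then fit the names of their lists. Nothing states if these deposited numbers are reads or were scaled, so the word values is used for them and count models were left out. The deposited log2 is control over knockout. Here it was recomputed as knockout over control, with 1 added to each mean. Library totals are unknown, and so is the precision that depth gives. Positions are 1-based and run in steps of 50 bp.

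The members, lists of comparisons and named regions were chosen with earlier results of these data known. The regions named were drawn from the 2 widest and the highest-scoring broad row of each list and the loci broad in most lists. The score had to lie below the largest number its format can hold. Not every region that this rule picked is described. Regions from other stages and the 9 regions listed at all stages were chosen after their values were seen. Overlap meant at least 1 bp. Wilson intervals cover only counting error, each group having 1 list. The overlap code was tested on 6000 simulated regions with 0 disagreements. Python 3.11.15, numpy 2.4.6, pandas 2.3.3 and scipy 1.17.1 were used. Alternatives changed the minimum width, score, overlap, joining of rows within 200 bp, the added constant and the samples. No column of per-sample values was left unused.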

Additional observations from a re-analysis of the deposited data

Results flagged for a closer look

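At 5 loci broad regions of opposite direction overlapped at different stages, with the 3 knockout values all on one side of the 3 control values at each stage. The difference between the stages was not tested, and these 5 were found among 44 loci that were broad in 2 lists. Of those 44, 11 had opposite directions, and 75.5% of all broad regions had such separate values.

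On chromosome 1, chr1:876201-879800 was higher in knockout cells at DE, with 1240, 1560 and 1226 in knockout cells and 1213, 1030 and 837 in control cells, per the authors' deposited table, a log2 ratio of 0.39. The GT region chr1:873251-877350, which overlaps its left end, had 1322, 1401 and 1018 in knockout cells and 1497, 1660 and 1563 in control cells, per the authors' deposited table, a log2 ratio of -0.34. A second locus there, chr1:54793251-54796650, had a log2 ratio of 0.51 at DE, and chr1:54795101-54798800 had -0.52 at ESC.

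On chromosome 3 nearly the same stretch was broad at both stages. The PE region chr3:128199851-128203400 had 1680, 1319 and 1465 in knockout cells and 880, 1205 and 1102 in control cells, per the authors' deposited table, a log2 ratio of 0.49. The ESC region chr3:128199301-128202600 had 1155, 1111 and 1261 in knockout cells and 1666, 1349 and 1684 in control cells, per the authors' deposited table, a log2 ratio of -0.41.

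On chromosome 16, chr16:1147701-1151800 at PE had a log2 ratio of 0.35, and chr16:1149101-1152750 at ESC had -0.56, with 1035, 1034 and 1043 in knockout cells and 1592, 1443 and 1546 in control cells, per the authors' deposited table. On chromosome 10 the regions barely overlapped: chr10:135071551-135074900 at PP had a log2 ratio of 0.63, and chr10:135074801-135078450 at DE had -0.46.

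Outside the autosomes, 2 rows of the control DE list, both mitochondrial, were also at least 3000 bp wide, and the comparisons above leave them out.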

How the results depend on the processing

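No median ratio changed sign, which the lists' own choice of rows largely fixes. No paired analysis was possible because the 3 values of a genotype carry no replicate number and no result comes from a test. A minimum width of 2000 bp gave 5305 regions and 5000 bp gave 78, and 695 remained without chromosomes 1, 11 and 22, an alternative added after seeing the data. The knockout share at DE was 89.1% at 2000 bp, 100% at 5000 bp and 89.4% without those chromosomes. At 5000 bp it was 25% of 4 regions at ESC, 68.8% of 16 at GT and 100% of 2 at PE, and PP had no such region. The share listed at another stage was 60.4% at 2000 bp, 80.8% at 5000 bp, 52.9% among the 50% of rows with the higher scores, 58.8% with separate values only, 73.8% without those chromosomes and 65.2% when 50% of the shorter region had to overlap. The settings by score and by separate values also removed rows of the other stages, so regions had fewer rows to meet. Their lower shares therefore say little of the broad regions kept. The share meeting a cluster region was 25.5% at 2000 bp and 42.3% at 5000 bp. Median log2 ratios became -0.48 for control DE, -0.48 for control GT and 0.53 for knockout GT at 2000 bp, and 0.62 for knockout ESC (1 region) and -0.32 for control GT at 5000 bp. Leaving out 1 value of each genotype, they ranged from -0.44 to -0.33 in control DE, -0.46 to -0.35 in control PE, 0.38 to 0.50 in knockout ESC, 0.32 to 0.44 in knockout PE and 0.51 to 0.76 in knockout PP. Apart from that removal of rows, the cause of these shifts was not tested. The other 75 shares and medians moved by less than their spread or interval. The number of regions was 1235 with rows within 200 bp joined, 980 without chromosome 22, 906 among the 50% with the higher scores and 856 with separate values only, each within 1.5 times 1134.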
